A study of Mus musculus with 3 samples.

Results

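Proteins bound for the cell surface or the extracellular matrix are folded in the endoplasmic reticulum (ER) and carried out in coated vesicles, and 42 genes of this secretory pathway and of the unfolded protein response were followed through 3 sorted populations of mouse bone cells. The genes were taken by symbol from a fixed list, and every probe set annotated to one of them alone was read. Of the 42 genes, 41 had such a probe set, among 18193 genes on the array, and they were covered by 90 probe sets. Fkbp10 is not analysed here. They comprise 19 measured chaperones and folding enzymes, 11 stress sensors and transcription factors, 4 genes of ER-associated degradation, and 7 genes of translocation and vesicle transport.

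The populations came from C57BL/6 mice. Per the series design text, collagenase released endosteal cells from femur and tibia fragments, and cells lacking CD45, CD31 and Ter119, which mark blood, endothelial and erythroid cells, were sorted on PDGFRα, a growth factor receptor of mesenchymal cells, and Sca-1, a surface protein of mesenchymal progenitors. This gave PDGFRα+Sca-1+ cells (double-positive below), PDGFRα+Sca-1− cells (single-positive) and PDGFRα−Sca-1− cells (double-negative), each hybridised to 1 Affymetrix array after 2 rounds of RNA amplification. The sources used here do not give age, sex or the number of animals pooled, and the labels name no treatment. With 1 array per population, no difference below has a replicate check, and no test could be run.

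Secreted proteins enter the ER through the Sec61 channel, fold there with the help of BiP and other chaperones, and leave in COPII vesicles. When unfolded protein accumulates, IRE1 splices Xbp1 mRNA, PERK slows translation and raises ATF4, and ATF6 is cut into an active factor. Together these arms are known to raise chaperones, degradation and transport. ATF4 also answers amino acid shortage and other stresses through the integrated stress response. Osteoblasts and chondrocytes secrete large amounts of collagen and are known to depend on this machinery.

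Promoters of these genes hold recognisable response elements, which are printed here because the results below are read beside them. The window was 250 bases before to 50 after each RefSeq start (GRCm38.p6), read on both strands, and 35 of the 42 genes had one. The ER stress response element (ERSE), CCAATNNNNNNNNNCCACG, was in the windows of 8 of these 35 genes. In all windows it was found for 37 of 27025 genes, or 0.137%. The 9 matches follow on the strand of the motif, with its fixed letters in capitals.
Hspa5, chr2:34772025-34772043: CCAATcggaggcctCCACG
Hsp90b1 (first match), chr10:86705638-86705656: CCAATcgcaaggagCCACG
Hsp90b1 (second match), chr10:86705533-86705551: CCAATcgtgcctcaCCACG
Calr, chr8:84847075-84847093: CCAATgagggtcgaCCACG
Canx, chr11:50325800-50325818: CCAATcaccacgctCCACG
Pdia6, chr12:17266491-17266509: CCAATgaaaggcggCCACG
Dnajc3, chr14:118937827-118937845: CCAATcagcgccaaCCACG
Creld2, chr15:88819520-88819538: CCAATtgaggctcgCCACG
Syvn1, chr19:6046532-6046550: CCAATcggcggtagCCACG

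A pair of shorter elements was searched the same way. The unfolded protein response element (UPRE), TGACGTGG, was in the windows of 3 of the 35 genes, Sec23a, Sec24d and Kdelr3, all of them vesicle transport genes, and of 0.714% of all genes. The C/EBP-ATF response element (CARE), TGATGNAA, which ATF4 is known to bind, was in those of 4, Atf3, Herpud1, Trib3 and Chac1, and of 4.51% of all genes. No match overlapped a match to another of these motifs in the windows printed. The whole windows of Hspa5, with an ERSE, Kdelr3, with a UPRE, and Chac1 and Trib3, each with a CARE, are shown 5′ to 3′ on the gene's strand with the match in capitals. The capitals are the reverse complement of the motif in Kdelr3, Chac1 and Trib3.
Hspa5, chr2:34771840-34772139, plus strand: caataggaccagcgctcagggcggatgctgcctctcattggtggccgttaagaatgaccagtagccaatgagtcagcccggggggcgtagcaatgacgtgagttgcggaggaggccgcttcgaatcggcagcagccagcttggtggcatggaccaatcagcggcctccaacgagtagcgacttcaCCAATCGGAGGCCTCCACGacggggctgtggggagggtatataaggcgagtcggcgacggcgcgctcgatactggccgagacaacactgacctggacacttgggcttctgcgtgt
Kdelr3, chr15:79516158-79516457, plus strand: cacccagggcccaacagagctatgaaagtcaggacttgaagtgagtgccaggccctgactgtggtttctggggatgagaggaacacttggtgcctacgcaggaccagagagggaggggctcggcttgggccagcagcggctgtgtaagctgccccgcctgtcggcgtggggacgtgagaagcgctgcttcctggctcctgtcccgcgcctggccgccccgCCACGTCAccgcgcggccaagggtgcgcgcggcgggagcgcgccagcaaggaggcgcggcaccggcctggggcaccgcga
Chac1, chr2:119350992-119351291, plus strand: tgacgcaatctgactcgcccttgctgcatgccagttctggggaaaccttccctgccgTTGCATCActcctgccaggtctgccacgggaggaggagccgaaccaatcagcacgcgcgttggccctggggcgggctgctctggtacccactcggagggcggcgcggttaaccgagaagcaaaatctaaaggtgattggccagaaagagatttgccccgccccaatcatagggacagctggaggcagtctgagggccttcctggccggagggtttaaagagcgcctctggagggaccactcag
Trib3, chr2:152344011-152344310, minus strand: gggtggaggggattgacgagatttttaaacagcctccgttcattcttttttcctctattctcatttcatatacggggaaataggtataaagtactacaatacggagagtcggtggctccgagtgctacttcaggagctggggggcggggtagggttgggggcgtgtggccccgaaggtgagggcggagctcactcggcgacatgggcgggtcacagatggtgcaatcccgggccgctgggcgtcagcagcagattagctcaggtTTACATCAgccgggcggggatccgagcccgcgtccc

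Some facts of the arrays bear on every value. Signals are linear MAS5 intensities, and a floor of 93.2, the mean of the 3 array medians, stood in for detection calls. All 41 genes lay above the floor on all 3 arrays by their brightest probe set, which was taken as the gene's value. Pdgfra gave signals of 12846 in double-positive, 2420.4 in single-positive and 586 in double-negative cells, highest in the populations sorted as positive. Ptprc (CD45) and Pecam1 (CD31) were under the floor on all 3 arrays, and Ly6a, which encodes Sca-1, is not analysed here. The ratio of 3′ to 5′ Actb control signals was 4.65 on the double-positive array, 2.63 on the single-positive array and 2.99 on the double-negative array. For Gapdh the ratios lay closer together, at 4.73 on the double-positive, 3.54 on the single-positive and 3.93 on the double-negative array. Probe sets of the same gene scattered with an SD of log2 ratios of 0.60 for double-positive over single-positive, 0.37 for single-positive over double-negative and 0.50 for double-positive over double-negative. That scatter is between probes, not between animals.

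Most of the machinery was present at like signals in the 3 populations. For 31 of the 41 genes every pairwise ratio of signals stayed under 2-fold. Among all 9737 genes above the floor on all arrays, 65.5% kept within such a range, against 75.6% of the 41. The small differences leaned one way. double-positive cells had the lowest signal of the 3 for 24 of the 41 genes (58.5%), against 36.3% of all genes, and double-negative cells had the highest for 24 (58.5%), against 30.3%. In these sorted bulk samples, fewer cells of a type and less RNA per cell cannot be told apart.

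**Figure D1:**
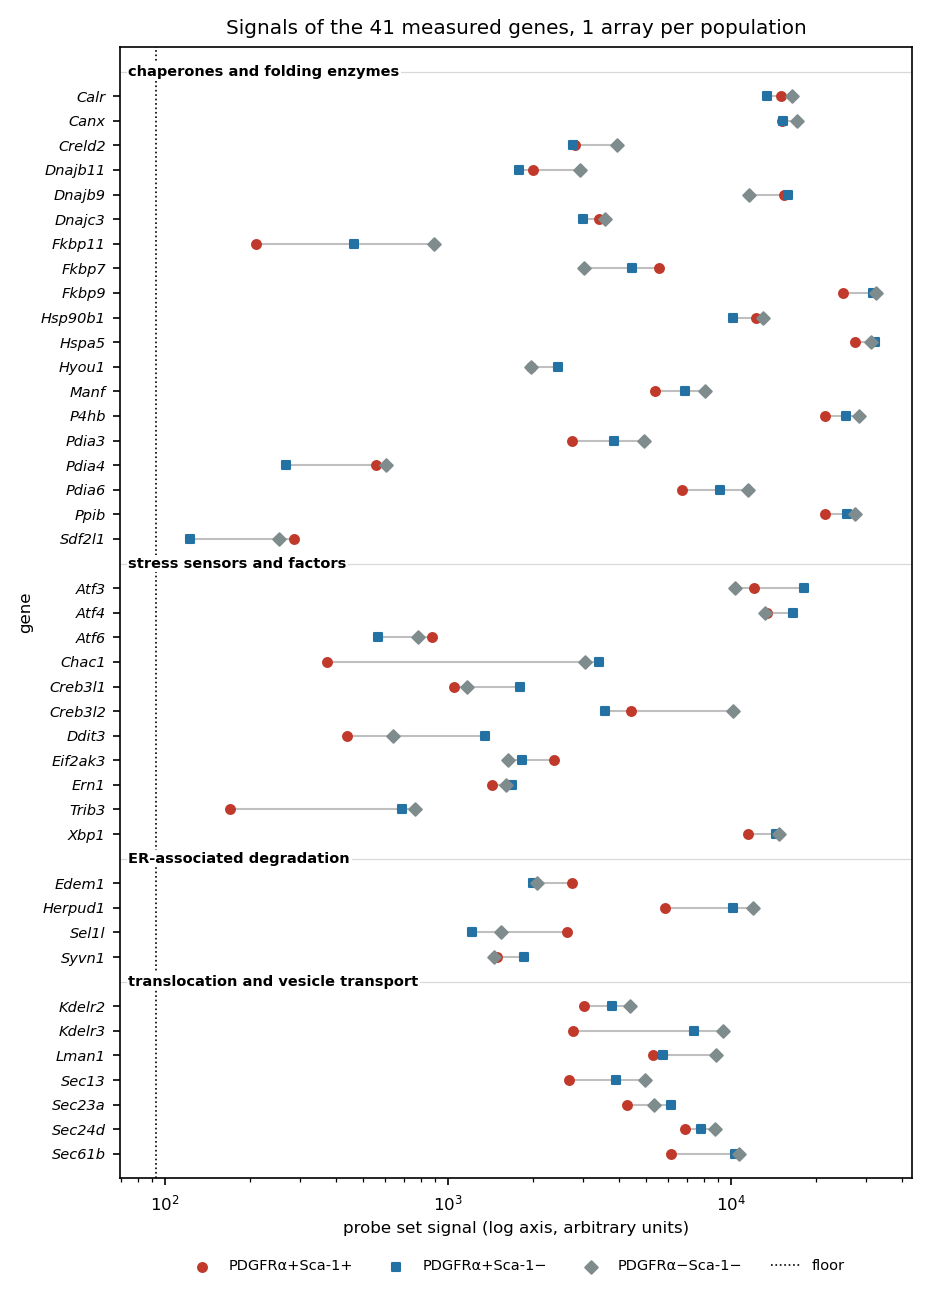
Signal of the brightest probe set (x axis, log scale, arbitrary units) of each of the 41 genes, grouped by role, with 1 point per population and a dotted line at the floor of 93.2. Chac1 spans the widest range, with 374 in double-positive cells against 3403 in single-positive and 3040.1 in double-negative cells, while most chaperones lie close together.

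At a threshold of 2-fold, 3 of the 41 genes were higher and 5 lower in double-positive than in single-positive cells. The array background was 15% of 11885 genes higher and 11.4% lower, so the share of the 41 that was lower, 12.2%, was near the background, and the share that was higher, 7.32%, was below it. Either way, 8 of the 41 passed 2-fold in that comparison (background 26.3%), 4 in the second (10.5%) and 6 in the third (26.8%), so large differences were no more frequent than among all genes. Between single-positive and double-negative cells, 1 gene was higher in single-positive cells and 3 lower, against a background of 4.87% and 5.65% of 11693 genes. In double-positive cells set against double-negative cells, 0 were higher and 6 lower (14.6%), against a background of 14.5% and 12.2% of 11884 genes. The medians leaned below 0. The median log2 ratio of the 41 genes was −0.26 for double-positive over single-positive, where that of all genes was 0.07. It was −0.16 for single-positive over double-negative, where all genes gave −0.03, and −0.35 for double-positive over double-negative, where all genes gave 0.03. The comparisons share arrays, so their counts are not separate evidence.

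**Figure D2:**
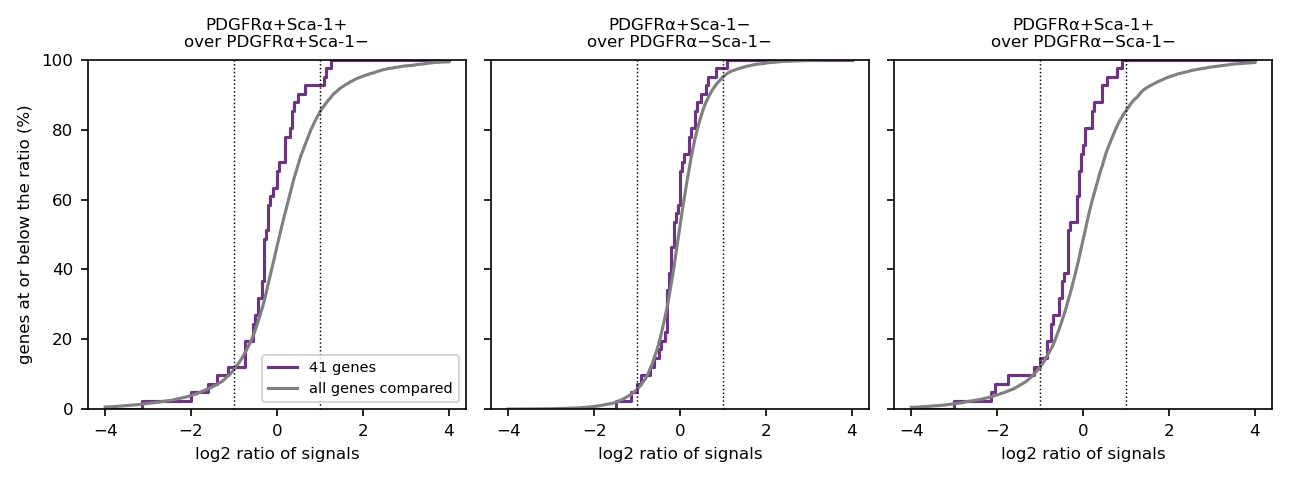
Share of genes (y axis, %) at or below a given log2 ratio of signals (x axis) for the 41 genes and for all genes compared, in 3 pairwise comparisons, with dotted lines at 2-fold. In double-positive over double-negative cells the 41 genes lie left of all genes over the middle of the range, with medians of −0.35 and 0.03.

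Among the chaperones and folding enzymes, the main chaperones were close in all 3 populations by their brightest probe sets. Hspa5, which encodes BiP, gave signals of 27400.1 in double-positive, 32329.5 in single-positive and 31279 in double-negative cells. Hsp90b1, the ER-resident Hsp90 known as GRP94, gave 12236 in double-positive, 10185 in single-positive and 12927 in double-negative cells. The lectin chaperone gene Calr (calreticulin) gave 15044 in double-positive, 13391 in single-positive and 16423 in double-negative cells. These 3 genes differed by at most 1.27-fold between any pair of populations. Dimmer probe sets differed more: one of Hspa5 gave 2354 in double-positive, 2580.1 in single-positive and 1522 in double-negative cells, and one of Hsp90b1 gave 1864 in double-positive, 1800.4 in single-positive and 2981 in double-negative cells. The other lectin chaperone, Canx (calnexin), was at 15090.2 in double-positive, 15279 in single-positive and 17047 in double-negative cells by its brightest probe set. Its dimmer probe sets disagreed for double-positive against single-positive cells: one gave 657 against 1309, the other 1703 against 731.

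The brightest genes of this role sat close to the top of the arrays' range, whose maxima were 42073.9 in double-positive, 38540.2 in single-positive and 40706.7 in double-negative cells. Whether ratios were compressed there was not tested. P4hb, a protein disulfide isomerase that is also a subunit of collagen prolyl 4-hydroxylase, gave 21531 in double-positive, 25478 in single-positive and 28235 in double-negative cells. Ppib, the cyclophilin of the collagen prolyl 3-hydroxylase complex, gave 21441 in double-positive, 25622 in single-positive and 27349.9 in double-negative cells. Fkbp9, an ER prolyl isomerase, gave 24789 in double-positive, 31698 in single-positive and 32485 in double-negative cells. All of these were lowest in double-positive and highest in double-negative cells, by less than 1.5-fold. The dimmer Fkbp9 probe set, away from the top of the range, put double-positive below double-negative cells by more, with a log2 ratio of −1.08.

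That same order, lowest in double-positive and highest in double-negative cells, was found for other folding genes. Pdia6 gave 6682 in double-positive, 9129.9 in single-positive and 11479 in double-negative cells, and Pdia3 gave 2733 in double-positive, 3855 in single-positive and 4929 in double-negative cells. Both encode protein disulfide isomerases, and their ratios for double-positive over double-negative cells were −0.78 and −0.85 on the log2 scale. Manf, a secreted ER stress protein, gave 5381 in double-positive, 6869 in single-positive and 8054 in double-negative cells. None of these reached 2-fold in any pair. The dimmer Pdia3 probe set put double-positive above single-positive cells, with a log2 ratio of 0.52 against −0.50.

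Fkbp11, a membrane-anchored prolyl isomerase, had the steepest gradient of the role. Its signal was 210.1 in double-positive, 467 in single-positive and 894 in double-negative cells. It was 2.22-fold lower in double-positive than in single-positive cells and 4.26-fold lower in double-positive than in double-negative cells. Of the other Fkbp11 probe sets, one was under the floor on all 3 arrays. The other passed it in single-positive cells alone, at 97.4, and so gave only bounds.

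Pdia4 and Sdf2l1 followed another pattern, with the low value in single-positive cells. Pdia4, a further disulfide isomerase, gave 555 in double-positive, 267 in single-positive and 601 in double-negative cells. Sdf2l1, part of a chaperone complex with Dnajb11, gave 285 in double-positive, 122 in single-positive and 252 in double-negative cells. Pdia4 was thus 2.08-fold and Sdf2l1 2.33-fold higher in double-positive than in single-positive cells, and 2.25-fold and 2.06-fold lower in single-positive than in double-negative cells. Both ratios of a gene rest on the same single-positive array, and these signals are among the dimmest of the 41 genes' values. Each sits just past 2-fold.

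The BiP cofactors and the remaining folding genes stayed within 2-fold. Dnajb9, a J-domain protein that recruits BiP, gave 15343 in double-positive, 15853 in single-positive and 11580.4 in double-negative cells. Dnajb11, another such protein, gave 1989.8 in double-positive, 1773 in single-positive and 2915 in double-negative cells. Creld2, an ER stress-inducible folding factor, gave 2802 in double-positive, 2752 in single-positive and 3945 in double-negative cells. The last 2 were highest in double-negative cells and Dnajb9 was lowest there. Dnajc3, also a J-domain protein, and Hyou1, which exchanges the nucleotide on BiP, had log2 ratios between −0.32 and 0.31 in all 3 comparisons by their brightest probe sets. Dimmer ones spread more, from −0.46 to 0.87 for Dnajc3 and at 0.52 for Hyou1 in double-positive over single-positive cells. Fkbp7, an ER prolyl isomerase, went against the common order at 5548 in double-positive, 4450.1 in single-positive and 3016 in double-negative cells.

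In all, 2 of 19 chaperones and folding enzymes were at least 2-fold higher and 1 lower in double-positive than in single-positive cells, with a median log2 ratio of −0.05. These shares, 10.5% and 5.26%, were below the 15% and 11.4% of all genes. In single-positive over double-negative cells 0 were higher and 2 lower (10.5%, against 5.65% of all genes), with a median of −0.26. In double-positive over double-negative cells 0 were higher and 1 lower (5.26%, against 12.2%), with a median of −0.19. There 16 of 19 ratios (84.2%) were below 0, against 48.5% of all genes. Double-negative cells held the highest signal for 14 of the 19 (73.7%), against 30.3% of all genes. The 8 genes with an ERSE printed above were Hspa5, Hsp90b1, Calr, Canx, Pdia6, Dnajc3, Creld2 and the degradation gene Syvn1. By their brightest probe sets all 8 were within 2-fold in every comparison, with log2 ratios between −0.78 and 0.35. So were 75.6% of the 41 genes and 65.5% of all genes above the floor on all arrays. A dimmer Canx probe set had a log2 ratio of 1.22 in double-positive over single-positive cells.

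**Figure D3:**
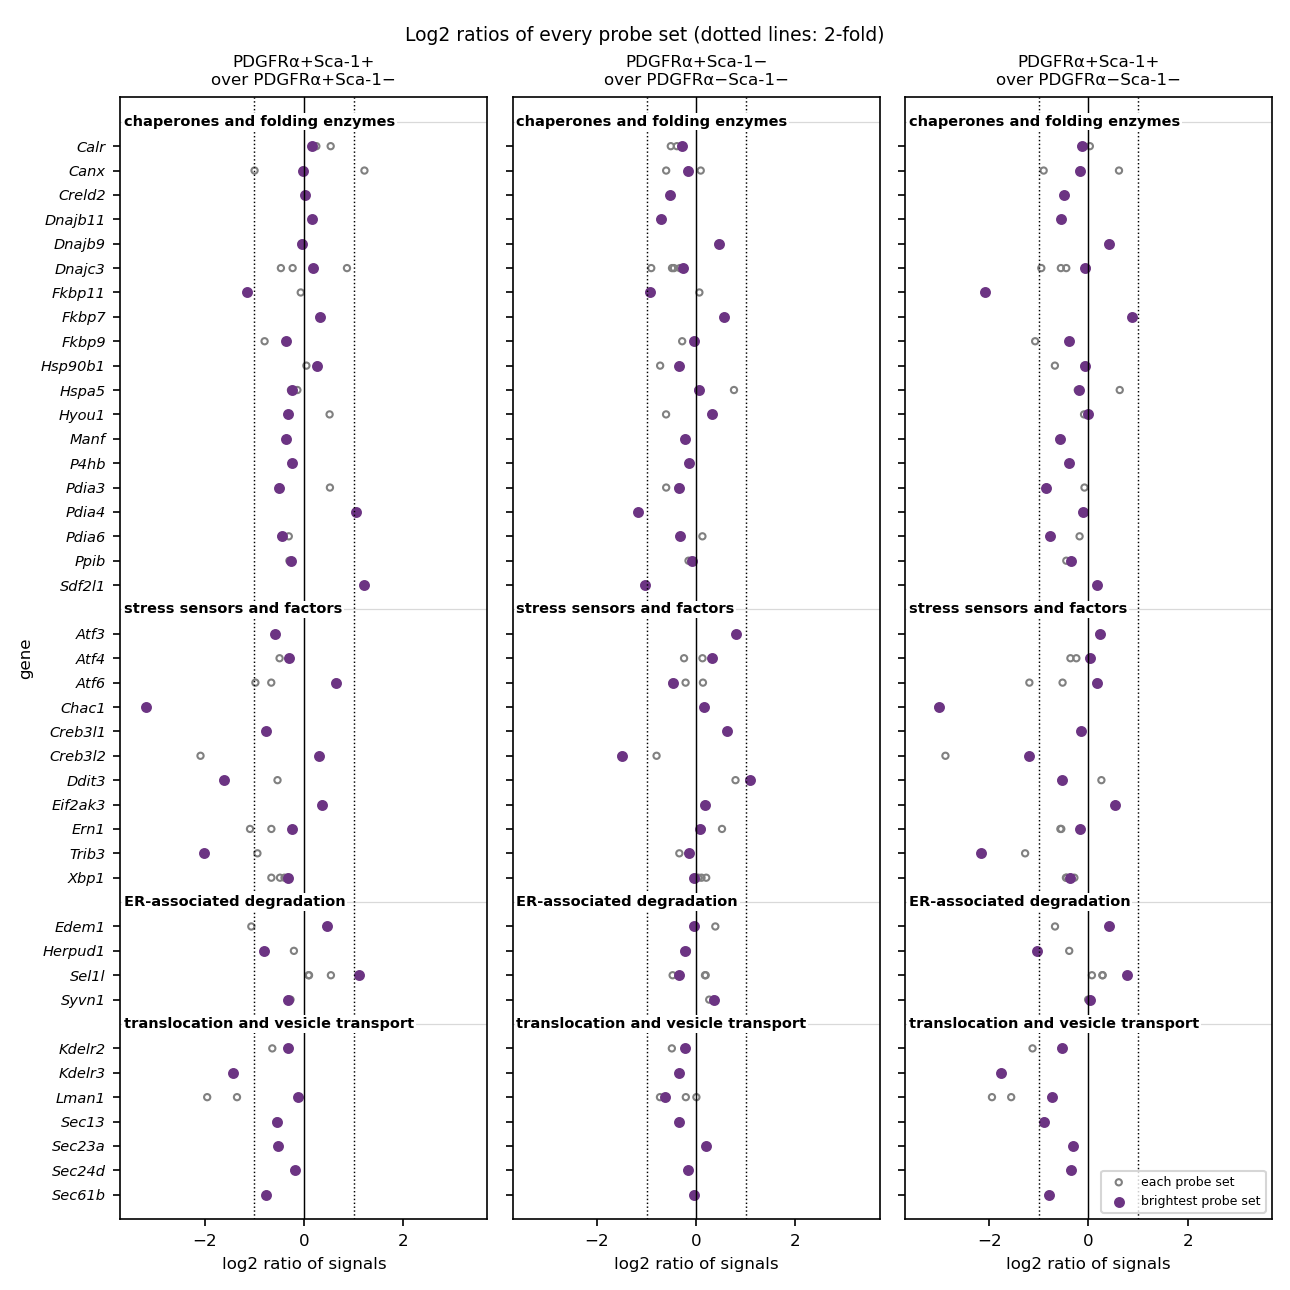
Log2 ratio of signals (x axis) in each pairwise comparison for the 41 genes by role, with filled points for the brightest probe set and open points for other probe sets above the floor, and dotted lines at 2-fold. Chac1 and Trib3 lie left of the 2-fold line in double-positive over both other populations, and the 2 Creb3l2 probe sets lie on opposite sides of 0 in double-positive over single-positive cells.

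The sensors of unfolded protein were expressed in all 3 populations and differed little by their brightest probe sets. Ern1, which encodes IRE1α, gave 1429 in double-positive, 1685 in single-positive and 1599 in double-negative cells. Eif2ak3, which encodes PERK, gave 2360.2 in double-positive, 1828 in single-positive and 1621 in double-negative cells. Atf6 gave 879 in double-positive, 563 in single-positive and 784 in double-negative cells by its brightest probe set. No sensor reached 2-fold by that measure. Dimmer Ern1 probe sets put double-positive cells lowest by more, with log2 ratios of −0.66 and, as a bound, −1.09 against single-positive cells. The other Atf6 probe sets gave log2 ratios of −0.98 and −0.66 for double-positive over single-positive cells, where the brightest had 0.64. For double-positive over double-negative cells they gave −1.19, past 2-fold, and −0.52, where the brightest had 0.17. The direction for Atf6 is therefore not settled. Signals of an mRNA do not measure splicing of Xbp1, phosphorylation or cleavage.

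The factors downstream of the sensors were bright and also close together. Xbp1, the factor made by IRE1 splicing, gave 11453 in double-positive, 14371 in single-positive and 14778 in double-negative cells, and all 4 of its probe sets put double-positive lowest of the 3. Atf4, controlled mainly through translation, gave 13429 in double-positive, 16564 in single-positive and 13215 in double-negative cells. Atf3, a stress-induced factor, gave 12067 in double-positive, 18015 in single-positive and 10342 in double-negative cells. Both ATF genes were highest in single-positive cells, by less than 2-fold.

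Chac1 and Trib3, known targets of ATF4, differed far more than Atf4 itself. Chac1 encodes an enzyme that breaks down glutathione and gave 374 in double-positive, 3403 in single-positive and 3040.1 in double-negative cells. It was 9.11-fold lower in double-positive than in single-positive cells and 8.14-fold lower in double-positive than in double-negative cells, the largest ratios of the 41 genes in these comparisons. Trib3, a pseudokinase that feeds back on ATF4 signalling, gave 170.0 in double-positive, 686 in single-positive and 763 in double-negative cells. It was 4.04-fold lower in double-positive than in single-positive cells and 4.49-fold lower in double-positive than in double-negative cells. The other Trib3 probe set put double-positive lowest too, with log2 ratios of −0.94 against single-positive and −1.28 against double-negative cells. Both genes were within 2-fold between single-positive and double-negative cells, and both carry a CARE in the windows printed above. The other genes with this element were less affected: Atf3 stayed within 2-fold throughout and Herpud1 reached a log2 ratio of −1.03 in 1 comparison.

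Ddit3, which encodes the pro-apoptotic factor CHOP, was high in 1 population. It gave 438 in double-positive, 1345 in single-positive and 638 in double-negative cells. It was 3.07-fold lower in double-positive than in single-positive cells and 2.11-fold higher in single-positive than in double-negative cells. Its other probe set gave smaller log2 ratios in the same directions for these 2 comparisons, −0.53 and 0.79. For double-positive over double-negative cells it gave 0.26 where the brightest had −0.54, so which of these was lowest is not settled.

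A wider list of the integrated stress response, with amino acid enzymes, transporters and tRNA synthetases, had 33 of its 35 genes on the array compared. In double-positive over single-positive cells 8 were at least 2-fold lower (24.2%, against 11.4% of all genes) and 2 higher, with a median log2 ratio of −0.28. Stc2, a secreted glycoprotein hormone, was under the floor in double-positive cells at 40.3, against 1445 in single-positive cells, and so at least 15.5-fold lower. Cth, which makes cysteine from cystathionine, gave 192 in double-positive, 1498 in single-positive and 1920.3 in double-negative cells. Sesn2, a stress-induced regulator of growth signalling, gave 529 in double-positive, 2452 in single-positive and 2701 in double-negative cells. The list was not uniform. Atf5, a factor of the same response chosen here after its values were seen, was 3.15-fold higher in double-positive than in single-positive cells at 1752 in double-positive against 557 in single-positive cells. The median of the list, −0.28, was close to the −0.26 of the 41 genes.

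In double-positive over double-negative cells 9 of the 33 were lower (27.3%, against 12.2% of all genes) and 1 higher, with a median of −0.56. In single-positive over double-negative cells 4 were lower (12.1%, against 5.65%) and 1 higher, with a median of −0.26. The 4 lower genes in that last comparison were Slc1a4 and Slc7a5, amino acid transporters, and Mthfd2 and Shmt2, mitochondrial enzymes of folate metabolism. Slc7a5 gave 287 in double-positive, 607 in single-positive and 1588 in double-negative cells, and Mthfd2 gave 796 in double-positive, 1381 in single-positive and 3314 in double-negative cells. Slc1a4 gave 1324 in double-positive, 659 in single-positive and 1954 in double-negative cells, and Shmt2 gave 1539 in double-positive, 1123 in single-positive and 2402 in double-negative cells. All 4 were highest in double-negative cells, with the lowest signal in double-positive cells for Slc7a5 and Mthfd2 and in single-positive cells for Slc1a4 and Shmt2.

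**Figure D4:**
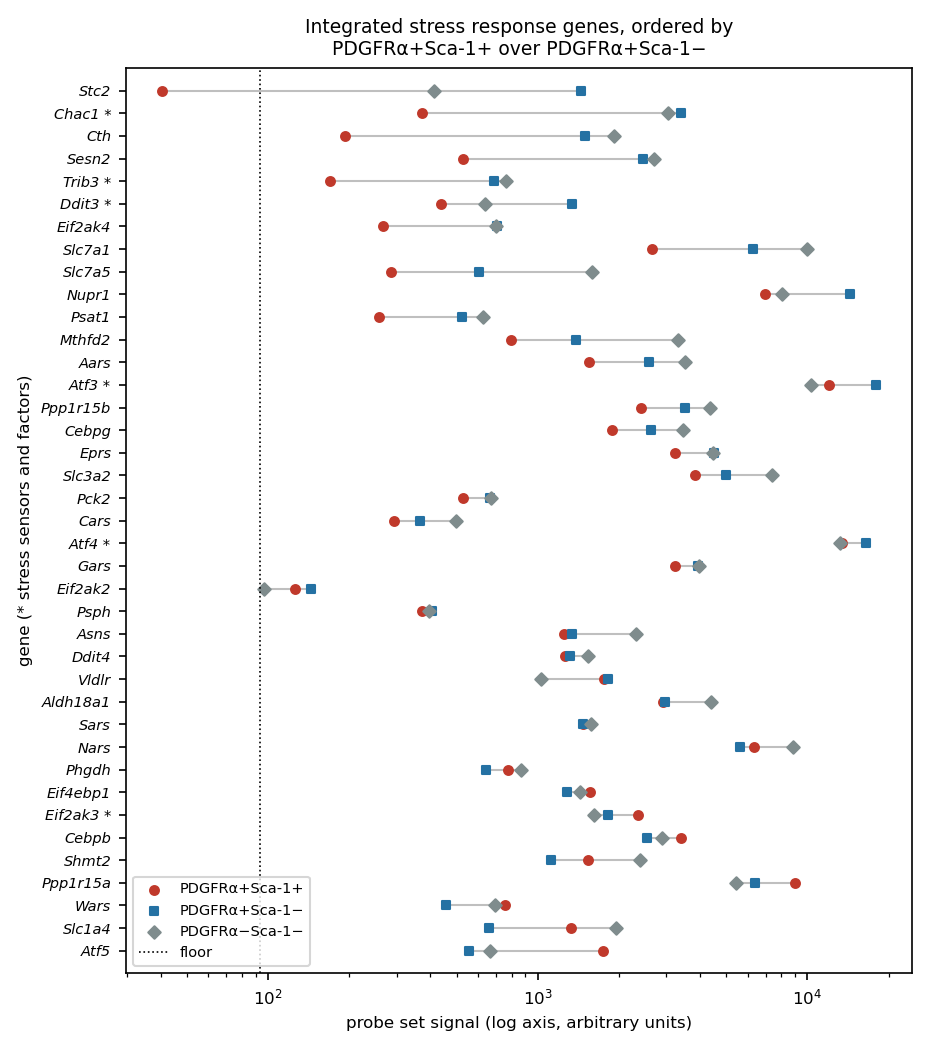
Signals (x axis, log scale, arbitrary units) of integrated stress response genes, with an asterisk on 6 of the 11 stress sensors and factors, ordered from the lowest ratio of double-positive over single-positive cells at the top, with a dotted line at the floor of 93.2. Stc2, Chac1, Cth, Sesn2 and Trib3 head the order, and Atf5 ends it, at 1752 in double-positive against 557 in single-positive cells.

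Immediate early and heat shock genes, known to respond quickly to tissue handling, were read beside Atf3 and Ddit3. Of 25 immediate early genes, 0 were at least 2-fold higher and 4 lower (16%) in double-positive than in single-positive cells. All genes gave 15% and 11.4% there. In single-positive over double-negative cells 2 were higher (8%) and 0 lower, where all genes gave 4.87% and 5.65%. The medians were −0.33 and 0.15. The largest differences between double-positive and single-positive cells were those of Fosl1, an AP-1 factor, Egr3 and Btg2. Fosl1 gave 1009 in double-positive, 4616 in single-positive and 5736 in double-negative cells, and Btg2, an antiproliferative gene, gave 4232 in double-positive, 15915 in single-positive and 11363 in double-negative cells. The 2 genes higher in single-positive than in double-negative cells encode zinc finger factors. Egr2 gave 4576 in double-positive, 15556 in single-positive and 4567 in double-negative cells, and Egr3 gave 2425 in double-positive, 9536 in single-positive and 4665 in double-negative cells. Atf3 and Ddit3, like Egr2, Egr3 and Btg2 but not Fosl1, were highest in single-positive cells. Of 18 cytosolic heat shock genes, 17 were within 2-fold in double-positive over single-positive cells and 18 in single-positive over double-negative cells. Of all genes, 26.3% and 10.5% passed 2-fold in these comparisons. The part of cell release in these values was not tested.

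The remaining factors are transducers of the ER membrane known from skeletal cells in mice. Creb3l1, or OASIS, which drives type I collagen in mouse osteoblasts, gave 1050.3 in double-positive, 1788 in single-positive and 1163 in double-negative cells, highest in single-positive cells by less than 2-fold. Creb3l2, or BBF2H7, which drives Sec23a in mouse chondrocytes, gave 4425 in double-positive, 3569 in single-positive and 10129 in double-negative cells by its brighter probe set. The dimmer one gave 736 in double-positive, 3123 in single-positive and 5436 in double-negative cells. Both put double-negative cells highest, at 2.29-fold or more above double-positive cells, but they disagree on whether double-positive or single-positive cells were lowest. Their log2 ratios for double-positive over single-positive cells were 0.31 and −2.09.

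Of the 11 sensors and factors, 0 were at least 2-fold higher and 3 lower in double-positive than in single-positive cells, with a median log2 ratio of −0.33. All genes gave 15% higher and 11.4% lower there, and 3 of 11 is 27.3%. In single-positive over double-negative cells 1 was higher and 1 lower (all genes 4.87% and 5.65%), with a median of 0.16. In double-positive over double-negative cells 0 were higher and 3 lower (all genes 14.5% and 12.2%), with a median of −0.16. With 11 genes each count is small. Single-positive cells held the highest signal for 6 of the 11 (54.5%), against 26.4% of all genes.

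Genes of ER-associated degradation, which returns misfolded protein to the cytosol, did not share a direction. Sel1l, the scaffold of the ubiquitin ligase complex, gave 2628 in double-positive, 1211 in single-positive and 1534 in double-negative cells, 2.17-fold higher in double-positive than in single-positive cells, but the other 3 probe sets above the floor gave log2 ratios from 0.09 to 0.54. Its partner Syvn1, the ligase, gave 1489 in double-positive, 1850.0 in single-positive and 1451 in double-negative cells. Herpud1, a stress-induced member of that complex, gave 5838 in double-positive, 10154 in single-positive and 11930.4 in double-negative cells, 2.04-fold lower in double-positive than in double-negative cells, while its other probe set had a log2 ratio of −0.39. Edem1, which extracts misfolded glycoproteins, gave 2746 in double-positive, 1996 in single-positive and 2065 in double-negative cells, and its other probe set went the opposite way in double-positive over single-positive cells, with a log2 ratio of −1.06 against 0.46. No degradation gene thus kept a 2-fold difference on all of its probe sets. Of 21 further degradation genes compared, 10 were below 0 in double-positive over single-positive cells (47.6%, against 46.5% of all genes), with a median of 0.01, and 20 were within 2-fold. Ubxn4, an ER membrane adaptor of the degradation complex, was 3.2-fold lower, at 1449 in double-positive against 4634 in single-positive cells.

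Genes of translocation and vesicle transport were the group with the most even direction. Double-positive cells had the lowest signal for all 7, against 36.3% of all genes. The median log2 ratio of the 7 was −0.51 for double-positive over single-positive and −0.22 for single-positive over double-negative cells. It was −0.74 for double-positive over double-negative cells. By the brightest probe sets, 0 of the 7 passed 2-fold in single-positive over double-negative cells, against 10.5% of all genes. In double-positive over each of the other populations 1 of the 7 (14.3%) was at least 2-fold lower, near the 11.4% and 12.2% of all genes. That gene was Kdelr3, a receptor that returns escaped chaperones from the Golgi to the ER. It gave 2763 in double-positive, 7398 in single-positive and 9368 in double-negative cells, 2.68-fold lower in double-positive than in single-positive and 3.39-fold lower in double-positive than in double-negative cells. Its relative Kdelr2 gave 3019.7 in double-positive, 3779 in single-positive and 4397 in double-negative cells, the same order within 2-fold, and its dimmer probe set had a log2 ratio of −1.13 for double-positive over double-negative cells.

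The COPII coat genes of this group, Sec13, Sec24d and Sec23a, followed that order or one close to it. Their relatives outside the group were mixed. Sec24b and Sec24c were highest in double-positive cells, while Sec23b and Sec24a were lowest there. Sec13, of the outer coat, gave 2674 in double-positive, 3918 in single-positive and 4974 in double-negative cells. Sec24d, which picks cargo, gave 6845 in double-positive, 7804 in single-positive and 8784 in double-negative cells. Sec23a, of the inner coat, gave 4291 in double-positive, 6129.8 in single-positive and 5327 in double-negative cells, so its highest signal was in single-positive cells. Sec23a and Sec24d, the inner coat genes whose loss in humans is known to impair skeletal ossification, stayed within 2-fold. Both carry the same UPRE as Kdelr3.

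Sec61b, a subunit of the channel into the ER, gave 6131 in double-positive, 10346 in single-positive and 10672 in double-negative cells. A further probe set shared with another symbol was set aside. Lman1, a cargo receptor for glycoproteins such as coagulation factors, gave 5287 in double-positive, 5734 in single-positive and 8851 in double-negative cells by its brightest probe set. Its next 2 probe sets separated double-positive cells more, with log2 ratios of −1.35 and −1.95 against single-positive cells, where the brightest had −0.12. All 3 thus put double-positive lowest, with different sizes.

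Of the 4 wider lists, those of coats and of the translocon leaned the same way as these 7 genes. Those of folding and of degradation had medians of −0.03 and 0.01 in double-positive over single-positive cells, where all genes gave 0.07. In double-positive over double-negative cells the folding list leaned below 0 too, with a median of −0.27. The degradation list gave −0.02 there and all genes 0.03. Of 41 further coat and cargo carrier genes compared, 29 had a log2 ratio below 0 in double-positive over single-positive cells and 33 in double-positive over double-negative cells, where all genes gave 46.5% and 48.5% below 0. Few were large: in double-positive over single-positive cells 2 of the 41 were at least 2-fold higher and 1 lower, with a median of −0.23. All genes gave 15% higher and 11.4% lower there. The higher genes were Tmed10, a cargo receptor of early vesicles, and Sec24b, a COPII coat gene. Tmed10 gave 10299 in double-positive, 3861 in single-positive and 4536 in double-negative cells. Sec24b gave 1064 in double-positive, 460 in single-positive and 763 in double-negative cells. The lower gene was Sec24a, also of the coat, at 1848 in double-positive, 3751 in single-positive and 3090 in double-negative cells. Of 31 genes of the translocon, signal peptide and oligosaccharyltransferase complexes, 19 were below 0 in double-positive over single-positive cells, with a median of −0.29, and 27 in double-positive over double-negative cells, with a median of −0.41. In double-positive over double-negative cells 5 were at least 2-fold lower (16.1%, near the 12.2% of all genes). Ssr2, of the translocon-associated complex, gave 2104 in double-positive, 5807 in single-positive and 6276 in double-negative cells, and Ssr4, of the same complex, gave 4821 in double-positive, 12416 in single-positive and 11884 in double-negative cells.

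Of 27 further folding and redox genes, 0 were at least 2-fold higher and 1 lower in double-positive than in single-positive cells, with a median of −0.03. All genes gave 15% and 11.4% there. The lower gene was Pdia5, a disulfide isomerase, at 1354 in double-positive, 5478 in single-positive and 3742 in double-negative cells. In double-positive over double-negative cells 0 of the 27 were higher and 4 lower (14.8%, against 12.2% of all genes), with a median of −0.27. Over the 4 wider lists of 120 secretory pathway genes compared, double-positive cells were lowest for 69 (57.5%) and double-negative cells highest for 63 (52.5%), close to the 58.5% of each among the 41 genes. In single-positive over double-negative cells, 0 of the 120 reached 2-fold, against 10.5% of all genes.

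Markers of skeletal and stromal cells moved between the same populations. Of 14 chondrocyte markers, 13 were at least 2-fold lower and 0 higher in double-positive than in single-positive cells, with summed signals of 46178 in double-positive, 314968 in single-positive and 286215 in double-negative cells. In single-positive over double-negative cells 3 of the 14 were higher and 0 lower. Of 10 osteoblast and osteocyte markers compared, 8 were lower and 0 higher in double-positive than in single-positive cells. In single-positive over double-negative cells 6 of these 10 were higher and 0 lower. Their summed signals over 12 genes were 47290.3 in double-positive, 150471 in single-positive and 72594 in double-negative cells. Of 13 fibroblast and adventitial markers 9 were higher and 0 lower in double-positive than in single-positive cells. Their summed signals were 220474 in double-positive, 110476 in single-positive and 90317 in double-negative cells. Pdgfra, the gene of a sorting marker, is in that list, is among the 9 and adds to the sums. All genes gave 15% higher and 11.4% lower in double-positive over single-positive cells. They gave 4.87% and 5.65% in single-positive over double-negative cells. The brightest marker of each list was Col9a1, a cartilage collagen gene, Ibsp, a bone matrix gene, and Gsn, which encodes the actin-severing gelsolin. Col9a1 gave 5001 in double-positive, 35155 in single-positive and 35539 in double-negative cells, and Ibsp gave 728 in double-positive, 31665 in single-positive and 16112 in double-negative cells. These shifts are far larger than those of the folding machinery, and their part in the differences of the 41 genes was not tested. The populations sorted as Sca-1− thus carried bright cartilage genes beside the bone genes of their endosteal label.

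Blood cells rich in secretory machinery were looked for as well. Of 15 plasma and B cell genes, 3 were above the floor in double-positive, 5 in single-positive and 5 in double-negative cells. The defining plasma cell genes Jchain and Tnfrsf17 were under the floor on all 3 arrays, with highest signals of 60.4 and 51.5, and so were Cd79a and Cd79b. The summed signals of the list were 10091 in double-positive, 2844 in single-positive and 2964 in double-negative cells, of which Ebf1, also a stromal gene, gave 7381 in double-positive cells. Of 6 list genes compared in double-positive over double-negative cells, 1 was at least 2-fold higher and 1 lower (16.7% each). All genes gave 14.5% and 12.2% there. The lower gene had a log2 ratio of −2.43, so it was well above the floor in double-negative cells. Of 12 neutrophil precursor genes 10 were above the floor in double-positive, 10 in single-positive and 2 in double-negative cells, with summed signals of 3478 in double-positive, 3540.3 in single-positive and 751 in double-negative cells. Its brightest gene, Mpo, gave 655 in double-positive, 712 in single-positive and 44.9 in double-negative cells. Of 10 erythroid genes 3 were above the floor in double-positive, 7 in single-positive and 6 in double-negative cells, with sums of 1547 in double-positive, 2581 in single-positive and 7921 in double-negative cells, mostly from the transferrin receptor Tfrc, which dividing cells of other kinds also express. Of 14 macrophage and osteoclast genes 7 were above the floor in double-positive, 8 in single-positive and 7 in double-negative cells, with sums of 13691 in double-positive, 7465 in single-positive and 7101 in double-negative cells. Of 12 endothelial genes 3 were above the floor in double-positive, 5 in single-positive and 2 in double-negative cells, with sums of 2054 in double-positive, 1627 in single-positive and 1179.97 in double-negative cells. The part of such cells in the results was not tested.

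How far the other probe sets of a gene bear out its call differed between comparisons. Of 24 genes with more than 1 probe set compared, all probe sets gave the same call for 15 in double-positive over single-positive and for 22 in single-positive over double-negative cells. In double-positive over double-negative cells the same held for 18 of 23 genes. By sign the order differed, since all probe sets agreed in sign for 17 of 24 genes in double-positive over single-positive, 14 of 24 in single-positive over double-negative and 15 of 23 in double-positive over double-negative cells.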

How the data were processed

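The authors deposited linear probe set intensities, made with MAS5 per the submitters' processing notes. The sources used here give neither its version nor detection calls. The 2% trimmed mean was 500 on each array before deposition. The 64 control probe sets were left out. Each array was then rescaled so that the 2% trimmed means of the remaining 45037 matched, and signals below the floor of 93.2 were set to it before log2. The platform annotation named 1 gene for 34945 probe sets, which gave 18193 genes, each represented by its brightest probe set (mean log2 signal). A gene under the floor on both arrays was not compared, and under it on 1 array had only a bound, written "at least".

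With 1 array per population no p-value could be had; a difference was counted at 2-fold and read beside the same count over all genes. The number of arrays limits the precision. All 41 genes were accounted for; those past 2-fold were given with all 3 signals, and up to 3 genes with the largest ratios in the comparison described were named per wider list, besides genes making up a count of 5 or fewer and Atf5. Genes and lists were chosen with earlier results of these data known. The counting was tested on simulated data. Python 3.11.15, pandas 2.3.3 and SciPy 1.17.1 were used. Other scalings, floors and probe set choices were tried.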

Additional observations from a re-analysis of the deposited data

How the results depend on the processing

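Each count and median was recomputed with quantile normalization, with no further scaling, with the floor at the 33rd or 67th percentile, with log2(signal + 16) and no floor, with the mean over probe sets, and with probe sets without a suffix. The median of double-positive over single-positive cells ran from −0.30 to −0.17, that of single-positive over double-negative cells from −0.22 to −0.16 and that of double-positive over double-negative cells from −0.39 to −0.21. The number of genes lowest in double-positive cells, an alternative chosen after seeing the data, ran from 21 to 24. With the mean over probe sets, 1 gene in place of 3 was higher in double-positive than in single-positive cells, and 0 in place of 1 in single-positive than in double-negative cells. Of 18 calls of single genes, 9 stayed past 2-fold under every alternative that measured them: those of Chac1, Trib3, Kdelr3 and Creb3l2 and that of Ddit3 in double-positive over single-positive cells. Chac1 and Kdelr3 had 1 probe set each, so the alternatives that change the choice of probe sets could not alter their calls. The mean over probe sets ended the calls of Pdia4, Sel1l, Fkbp11 and Herpud1 and that of Ddit3 in single-positive over double-negative cells, quantile normalization also ended that of Herpud1, and the 67th percentile floor that of Fkbp11 in double-positive over single-positive cells. The 67th percentile floor or the missing floor ended those of Sdf2l1. No direction of a call was reversed. Below 2-fold, 22 of 842 single-gene values took the opposite sign, 13 of them with the mean over probe sets. Between double-positive and single-positive cells these included Creb3l2 at −0.89, Atf6 at −0.33 and Edem1 at −0.30, all above 0 by the brightest probe set. Probe sets with no suffix put Canx, Lman1 and Fkbp9 past 2-fold. No paired analysis was possible because each population had 1 array. Limits are the lack of replicates, signals of the brightest chaperones near the top of the range, and dim signals of Pdia4, Sdf2l1, Fkbp11 and Trib3.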
